A study of Homo sapiens with 6 samples.

Results

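All RNA sites of wild-type FMR1 isoform 7 were compared with all RNA sites of wild-type FMR1 isoform 1. Membership followed from the immunoprecipitated protein alone: the isoform 7 list held 78495 sites and the isoform 1 list 121903, together 200398 of the 464799 sites in the series. Sites came from PAR-CLIP, in which 4-thiouridine built into RNA is linked to bound protein by ultraviolet light, and RNA recovered with that protein is sequenced. Both proteins carried FLAG and HA tags and were expressed from doxycycline-inducible transgenes in FlpIn T-REx HEK293 stable lines, derived from an established human embryonic kidney line. The cells were given 1 µg/ml doxycycline and 100 µM 4-thiouridine for 16 h and irradiated at 365 nm, lysates were treated with RNase T1, and complexes were recovered through the FLAG tag. The other 4 libraries, made in the same way, were isoform 1 and isoform 7 with the I304N change (132219 and 88644 sites) and the paralogs FXR1 (9017 sites) and FXR2 (34521 sites). Each protein had 1 library, so isoform, stable cell line and library cannot be told apart, and no value has a replicate error. The labels do not say whether a line is 1 clone, nor describe the endogenous FMR1 gene. Intervals are exact 95% intervals, Clopper-Pearson for shares and conditional for ratios. They cover only counting error. No test was possible, so no p-value is given.

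FMR1, the fragile X protein, binds RNA through KH domains and an arginine- and glycine-rich region. It associates with polyribosomes and is known for holding back translation, above all of long messenger RNAs in neurons, and its loss causes fragile X syndrome. The gene is spliced into several isoforms. Isoform 1 is the full-length form, and isoform 7 lacks exon 12, which extends a loop of the second KH domain. I304N changes an amino acid in that same domain.

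The skipped exon is shown because it is the stretch of coding sequence that tells the compared proteins apart. In the GENCODE release 29 annotation it lies on the plus strand at chrX:147938099-147938161 (GRCh38), inside the coding sequence. It is 63 nt long with 50.8% G or C, and it encodes 21 codons without a shift of frame. The isoform 1 transcript has 17 exons and a coding sequence of 1896 nt, and the isoform 7 transcript has 16 exons and 1833 nt. The exon reads as follows, 5′ to 3′, all in lower case with no base marked.

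FMR1 exon 12: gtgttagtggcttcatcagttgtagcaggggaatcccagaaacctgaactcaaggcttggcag

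Isoform 7 sites were fewer, narrower and farther apart than isoform 1 sites. The median width was 21 nt against 24 nt and the mean 23.2 nt against 29.5 nt. Sites of 60 nt or more made up 1.51% of the isoform 7 list and 6.35% of the isoform 1 list, and the widest site measured 367 nt against 1824 nt. The authors' repeat flag was set on 4.51% of isoform 7 sites and 5.35% of isoform 1 sites. Within a list, sites that carry the same number in their name lie next to each other. In isoform 7, 11.3% of sites (11.1 to 11.5) shared their number with another site, against 39.2% (38.9 to 39.5) in isoform 1. The most sites under 1 number were 9 and 19, respectively. What the number stands for is not given in the sources used here. In the I304N lists, 26.7% of isoform 7 sites and 26.9% of isoform 1 sites shared a number, so the wild-type lists lay on either side of both mutant lists.

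Nearly equal shares of the isoform 7 list fell on and off isoform 1 sites. Of its 78495 sites, 38080 had an isoform 1 site on the same strand that covered 1 nt or more of them, a share of 48.5% (48.2 to 48.9). Conversely, 35726 isoform 1 sites overlapped an isoform 7 site, 29.3% of the longer list (29.1 to 29.6). If isoform 1 sites were removed at random down to the length of isoform 7, the expected share of isoform 7 sites met would be 31.6%. Isoform 1 sites that overlapped an isoform 7 site were wider (mean 39.8 nt) than the other isoform 1 sites (25.3 nt). A list shortened by another rule could thus give another share. Overlap was mainly 1 site to 1 site: 37016 isoform 7 sites met a single isoform 1 site and 1064 met several. Among isoform 1 sites these numbers were 33027 and 2699.

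Private sites often lay close to the other list. An isoform 1 site lay within 50 nt of 59.4% of isoform 7 sites, within 1000 nt of 75.2% (74.9 to 75.5) and within 50000 nt of 91.0%. Starting from isoform 1 sites, these shares were 43.8%, 79.3% and 97.4%. The share was thus larger for isoform 7 sites at 50 nt and for isoform 1 sites at 1000 nt and 50000 nt. These shares were not thinned, and isoform 7 sites were set against the longer list. Isoform 7 had 19431 sites, 24.8% of its list, with no isoform 1 site within 1000 nt on the strand. For isoform 1 that number was 25187, or 20.7%.

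**Figure D1:**
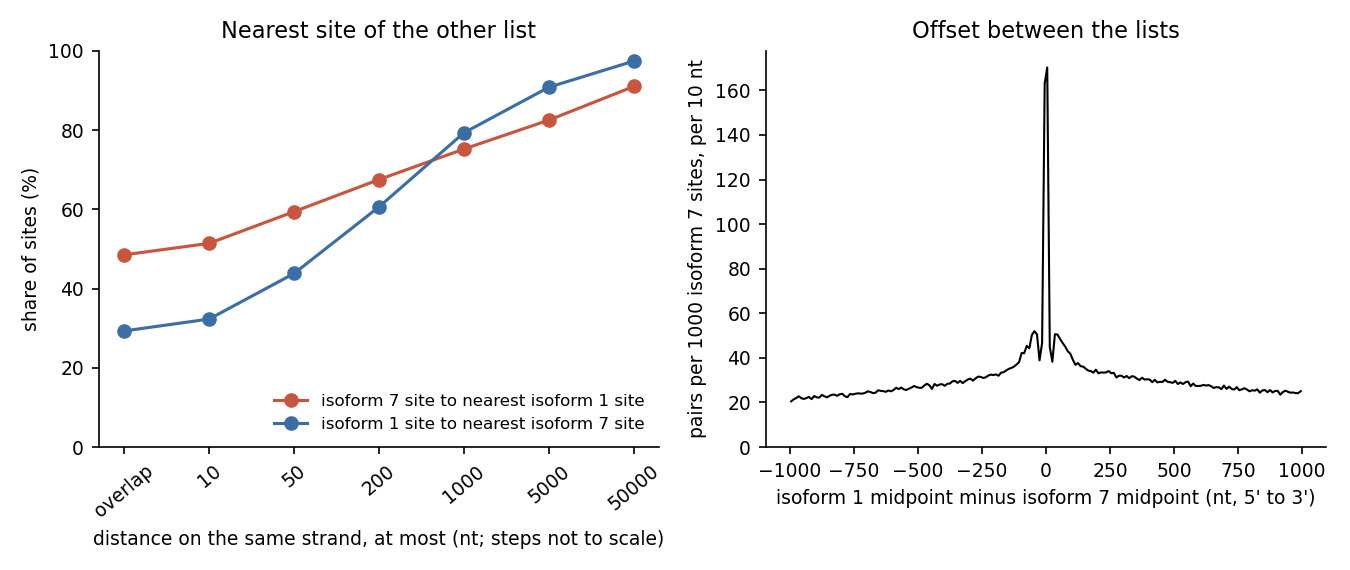
Left, share of sites (%) of each wild-type list whose nearest site of the other list lies within the distance on the x axis (nt, same strand, steps not to scale), with points joined by lines. Right, pairs of an isoform 7 and an isoform 1 site by the offset of their midpoints (nt, 5′ to 3′), as pairs per 1000 isoform 7 sites in each 10 nt; the narrow peak lies within 10 nt of offset 0 and pairs stay above 20 out to 1000 nt.

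Isoform 1 midpoints were denser close to isoform 7 midpoints than farther away. Within 10 nt of an isoform 7 midpoint, 167 isoform 1 midpoints were found per 1000 isoform 7 sites in each 10 nt, falling to 44.9 at 50 to 100 nt and 25.1 at 500 to 1000 nt. The central density was 6.63 times the density at 500 to 1000 nt. The slow decline beside the peak was also present within each list, from 36.3 at 50 to 100 nt to 17.3 at 500 to 1000 nt in isoform 7 and from 67.6 to 39.1 in isoform 1.

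Where sites overlapped, the isoform 1 site was usually the wider and its ends rarely coincided with those of the isoform 7 site. Among 39199 overlapping pairs, the isoform 1 site was wider in 68.6% and the isoform 7 site in 27.3%, with median widths of 30.0 nt and 23 nt and a median overlap of 20.0 nt. The isoform 7 site lay wholly inside the isoform 1 site in 48.8% of pairs and the reverse held in 15.5%. The 5′ ends were identical in 15.7% of pairs and the 3′ ends in 9.39%. Both ends were identical in 899 pairs (2.29%).

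Shared sites and private sites were then looked up in the 4 libraries that had not been used to sort them. Sites found in both wild-type lists were common in the other FMR1 lists: 84.3% of shared isoform 7 sites (83.9 to 84.6) lay on a site of I304N isoform 1 and 65.8% (65.4 to 66.3) on a site of I304N isoform 7. Private isoform 7 sites did so in 49.5% (49.0 to 50.0) and 34.6% (34.2 to 35.1), and private isoform 1 sites in 27.9% (27.6 to 28.2) and 15.5% (15.2 to 15.7). A private isoform 7 site was thus met by either mutant FMR1 list more often than a private isoform 1 site. For both kinds of private site the longer isoform 1 mutant list gave the larger share.

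The paralogs showed the opposite order. FXR2 met 12.8% of private isoform 1 sites (12.6 to 13.0) but 4.03% of private isoform 7 sites (3.84 to 4.22). FXR1 met 4.59% (4.45 to 4.73) of private isoform 1 sites and 0.683% (0.605 to 0.768) of private isoform 7 sites. Of shared sites FXR2 met 26.1% in isoform 1, and 9126 of 38080 in isoform 7. Private isoform 1 sites had a median width of 22 nt against 20.0 nt in isoform 7. Among sites of 18 to 24 nt alone, FXR2 met 11.1% of private isoform 1 sites and 3.73% of private isoform 7 sites, and FXR1 met 3.60% and 0.693%.

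Distance to the other list split the private isoform 7 sites further. Those with an isoform 1 site within 1000 nt (20984 sites) were met by I304N isoform 1 in 62.4% and by I304N isoform 7 in 45.0%, and 31.9% were met by none of the 4 libraries. The 19431 sites farther away were met in 35.6% and 23.5%, and 59.7% by none. The distant sites were solitary: 70.2% had no other isoform 7 site within 1000 nt, against 13.9% of the nearer ones, and the repeat flag was set on 7.24% against 2.96%. Private isoform 1 sites near an isoform 7 site (60990 sites) had a median of 11 other isoform 1 sites within 1000 nt. Their isoform 7 counterparts had a median of 3 other isoform 7 sites. Over the whole lists these medians were 7 and 2, so the lists differed in this way throughout. Of the 60990 isoform 1 sites, 57.7% were met by none of the 4 libraries.

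**Figure D2:**
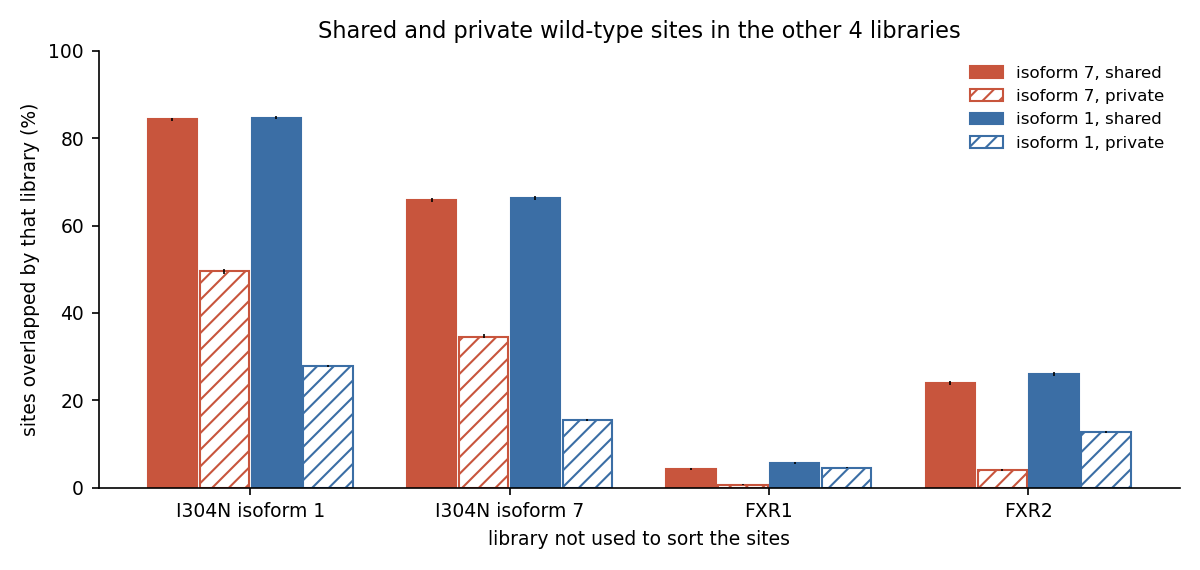
Share (%) of shared (filled) and private (hatched) wild-type sites overlapped by a site of each of the 4 libraries on the x axis, isoform 7 in red and isoform 1 in blue, with exact 95% intervals as black lines. Private isoform 7 sites reach 49.5% and 34.6% in the I304N lists, above private isoform 1 sites at 27.9% and 15.5%; in FXR2 the order is reversed, at 4.03% and 12.8%.

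Isoform 7 sites had fewer neighbours within their own list. Isoform 7 sites had a median of 2 other sites of their list within 1000 nt and isoform 1 sites 7. Sites with 10 or more such neighbours made up 14.9% of isoform 7 and 41.3% of isoform 1. Solitary sites, with no neighbour within 1000 nt, made up 28.7% (28.4 to 29.0) of isoform 7 and 12.8% (12.6 to 13.0) of isoform 1. Isoform 1 thinned at random to the length of isoform 7 would have 17.8% solitary sites. The other measures of crowding were not thinned. The median distance between neighbouring sites was 513 nt in isoform 7 and 92.0 nt in isoform 1. Distances of up to 50 nt made up 21.0% and 39.0%, respectively.

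**Figure D3:**
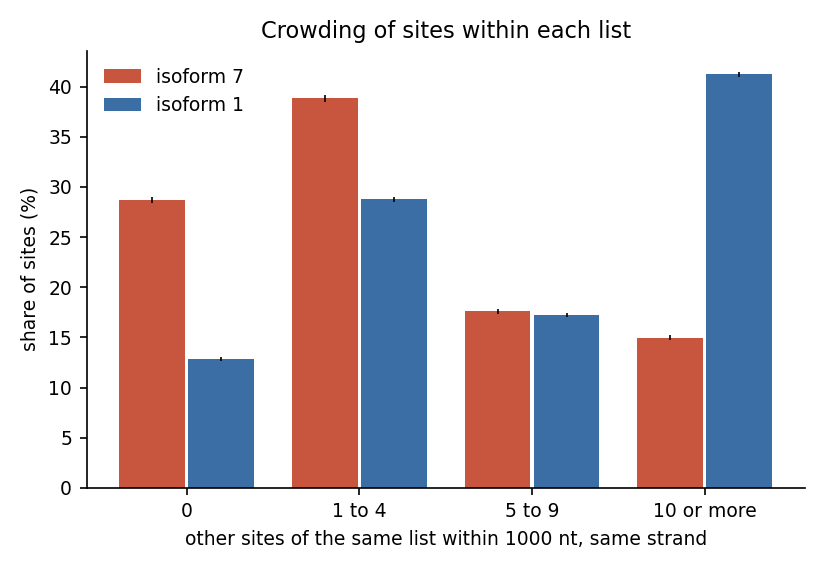
Share of sites (%) in each wild-type list by the number of other sites of the same list within 1000 nt on the same strand, with exact 95% intervals as black lines. Isoform 7 (red) is highest at 1 to 4 neighbours, at 38.9%, and isoform 1 (blue) at 10 or more, at 41.3%.

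The lists also divided differently over the chromosomes. Leaving out the mitochondrial genome and chromosome Y, isoform 7 had a larger share of its sites on 8 of 23 chromosomes beyond the counting interval and a smaller share on 13. Chromosome 16 stood highest, with 5.18% of isoform 7 sites and 3.13% of isoform 1 sites, a ratio of 1.65 (1.58 to 1.73). Chromosome 22 followed at 1.53 (1.44 to 1.62), then chromosome 17 at 1.31 (1.26 to 1.35) and chromosome 19 at 1.30 (1.25 to 1.35). Chromosomes 13 and 4 were lowest, at 0.789 (0.741 to 0.839) and 0.814 (0.774 to 0.856). On the mitochondrial genome the strands differed. The plus strand held 143 isoform 7 and 125 isoform 1 sites, a scaled ratio of 1.78 (1.39 to 2.28), and the minus strand 99 and 21 sites, a ratio of 7.32 (4.54 to 12.3). The mutant lists had 41 (isoform 1) and 55 (isoform 7) sites on the minus strand, and FXR1 and FXR2 had 0 there.

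Local density was compared in strand-specific windows of 50 kb, after scaling each list to 100000 sites and adding a pseudocount of 1. Isoform 7 reached more places with fewer sites: 15848 windows held an isoform 7 site and 11524 an isoform 1 site, and 8966 held both. Of 7380 windows with a mean of at least 2 scaled sites, 1574 (21.3%) were at least 2-fold higher in isoform 7 and 1651 (22.4%) at least 2-fold lower. By the counting interval of the ratio, 879 windows (11.9%) were higher and 1027 (13.9%) lower. The median log2 ratio was 0.04 over all these windows and -0.35 over the 1376 windows with at least 40 sites in the lists together. Among those dense windows 202 (14.7%) were higher in isoform 7 and 477 (34.7%) lower by the interval. Of the 18406 windows with a site in either list, 131 had at least 5 isoform 7 sites and no isoform 1 site. In 96, isoform 1 had at least 8 sites and isoform 7 none. The cut-offs and the list lengths differ, so these numbers are not set against each other. Scaling by the median of ratios instead changed the scaling of isoform 7 over isoform 1 by -0.22 on the log2 scale. It moved the median log2 ratio of the windows to -0.16 and gave 1364 higher and 2104 lower windows.

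Named loci were then examined in 9 lists ordered by role, 52 loci in all, each taken as the transcribed strand of the gene. By the counting interval 29 were higher in isoform 7, 2 were lower and 21 were neither, with a median log2 ratio of 0.68 and a summed scaled ratio of 1.49 (1.42 to 1.56). The background by the same rule was 11.9% of windows higher and 13.9% lower, or 14.7% and 34.7% of dense windows, with the medians given above. The lists were chosen with earlier results of these data known, so their share is a description. With 6 further loci chosen because they were dense in 1 list, 31 of 58 were higher and 6 lower. Under median-of-ratios scaling 25 were higher and 6 lower, and FMR1, CYFIP2, CHD4, SPTAN1, SPTBN1 and DYNC1H1 were no longer higher. Without repeat sites 31 were higher and 5 lower, the lost call being CDK1. Between the I304N lists, the summed ratio of isoform 7 over isoform 1 at the 52 loci was 1.07 (1.02 to 1.13). There 11 loci were higher in isoform 7 and 10 lower, and 10 were higher in both the wild-type and the I304N pair. The share of windows called between the I304N lists is not given. Over the 52 loci, the scaled site number of wild-type isoform 1 was the lowest of the 4 FMR1 lists at 23, ties included, and that of wild-type isoform 7 the highest at 32. No such ranking over all windows is given, so these numbers describe the chosen loci alone. Site numbers of the mutant lists are given with isoform 1 before isoform 7 unless the sentence says otherwise.

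**Figure D4:**
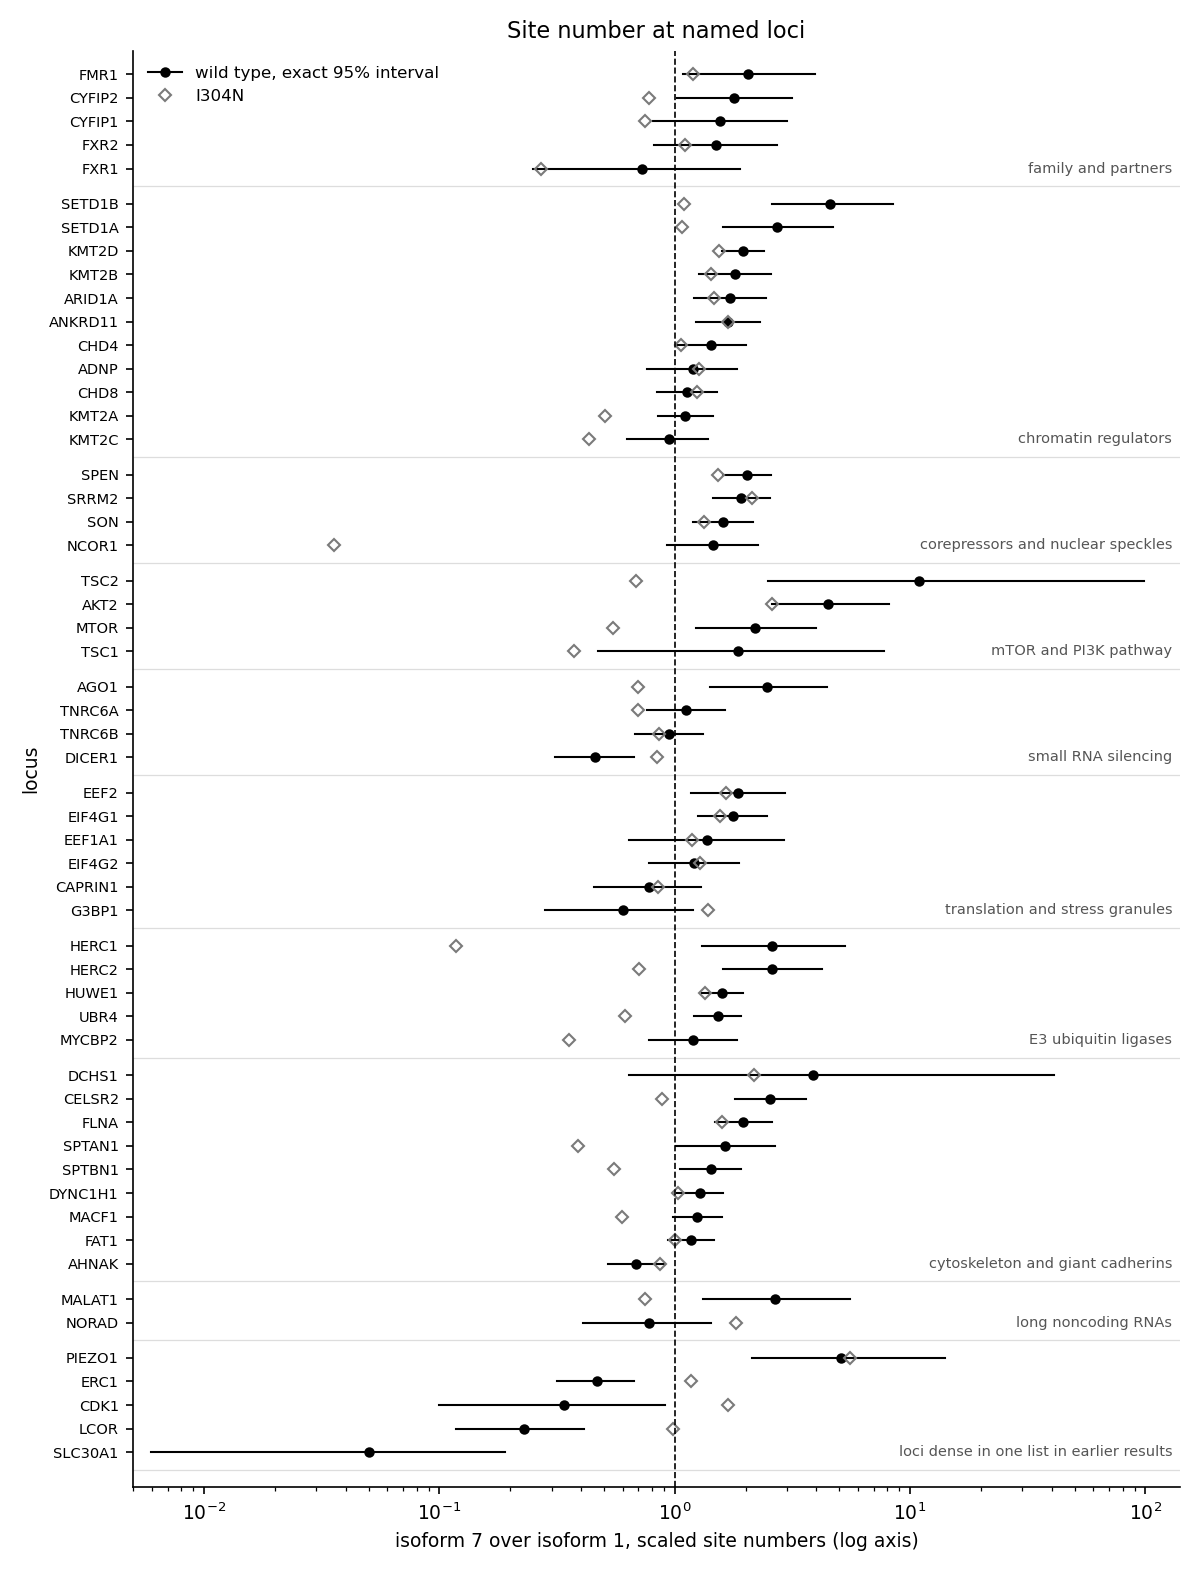
Scaled site number of isoform 7 over isoform 1 (x axis, log scale, no unit) at 55 of the 58 loci, grouped by list; black points are the wild-type ratio with its exact 95% interval, open diamonds the same ratio between the I304N libraries, and the dashed line marks equal scaled numbers. NEAT1, RRP1 and ATXN2 are not plotted because wild-type isoform 1 had no site there; the wild-type points lie to the right of the line for most loci, while SLC30A1 lies farthest to the left at 0.0501.

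The FMR1 family and its partners came first. FMR1 itself, on chromosome X from 146993702 to 147031304 (hg19, plus strand, outermost wild-type sites), held 25 isoform 7 and 19 isoform 1 sites, a scaled ratio of 2.04 (1.08 to 3.93). RNA of the transgene and of the endogenous gene cannot be told apart there. Of the 25 sites 96.0% overlapped an isoform 1 site. CYFIP2, which with its relative CYFIP1 binds FMR1 and belongs to the complex that controls actin nucleation, had 30 and 26 sites, a ratio of 1.79 (1.02 to 3.15). CYFIP1 had 21 sites in either list, a ratio of 1.55 (0.807 to 2.99). The paralog FXR2 had 24 and 25, and the paralog FXR1 had 7 and 15. The ratios of these 3 loci had intervals that included 1.

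Chromatin regulators were higher in isoform 7 at 7 of 11 loci and lower at none, with a summed ratio of 1.56 (1.42 to 1.71). KMT2D, a histone H3 lysine methyltransferase on chromosome 12 from 49413326 to 49449095 (minus strand), was the most densely covered. It held 216 isoform 7 and 172 isoform 1 sites, a ratio of 1.95 (1.59 to 2.40), with 216 and 223 sites in the I304N lists of isoform 1 and isoform 7. Sites in KMT2D were spread along the transcript in all 4 lists, with a median spacing of 84.0 nt in isoform 7 and 111 nt in isoform 1. SETD1B, a catalytic subunit of another such methyltransferase complex, differed most in this list. It had 50 isoform 7 and 17 isoform 1 sites, a ratio of 4.57 (2.59 to 8.45). The mutant lists had 67 and 49. Its relative SETD1A had 42 against 24, a ratio of 2.72 (1.61 to 4.69), with 67 and 48 in the mutant lists. At both loci wild-type isoform 1 had the lowest scaled number of the 4 FMR1 lists. KMT2B, ARID1A and ANKRD11 were higher at ratios of 1.80, 1.72 and 1.69, and CHD4 at 1.43 (1.02 to 2.01). With 20 kb added on either side, CHD4 had a ratio of 1.33 (0.990 to 1.78). KMT2A, KMT2C, CHD8 and ADNP had intervals that included 1.

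Corepressors and nuclear speckle proteins were higher at 3 of 4 loci, with a summed ratio of 1.82 (1.58 to 2.10). SPEN, a large transcriptional corepressor that binds RNA, held 174 isoform 7 and 133 isoform 1 sites on chromosome 1 from 16174322 to 16266803 (plus strand), a ratio of 2.03 (1.61 to 2.57). Of its isoform 7 sites 93.7% were shared. SRRM2 and SON, scaffold proteins of nuclear speckles, had ratios of 1.91 (1.45 to 2.53) and 1.60 (1.19 to 2.16). NCOR1, a corepressor of nuclear receptors, had 42 and 45 sites, a ratio of 1.45 (0.929 to 2.26), but a single site in I304N isoform 7 against 42 in I304N isoform 1.

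The mTOR and PI3K pathway joins growth signals to protein synthesis. The list is reported only in part, so no count or summed ratio is given for it. AKT2, a kinase of the pathway, held 52 isoform 7 and 18 isoform 1 sites, a ratio of 4.49 (2.58 to 8.15), and 95 and 55 in the I304N lists of isoform 7 and isoform 1. TSC2, an inhibitor of the pathway, held 14 against 2, a ratio of 10.9 (2.50 to 98.6), and none of the 14 overlapped an isoform 1 site. The mutant lists had 35 and 16 sites in TSC2, FXR1 had 0 and FXR2 had 3. MTOR, the central kinase, held 31 against 22, a ratio of 2.19 (1.23 to 3.97). TSC1, the partner of TSC2, had 6 and 5 sites and an interval that included 1.

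In the small RNA silencing list the highest and lowest loci lay on opposite sides. DICER1, the enzyme that cuts microRNA precursors, held 37 isoform 7 and 125 isoform 1 sites on chromosome 14 from 95552639 to 95599726 (minus strand), a ratio of 0.460 (0.310 to 0.668). The mutant lists had 48 (isoform 1) and 27 (isoform 7) sites, so wild-type isoform 1 stood above the other 3. Of the 37 isoform 7 sites 89.2% were shared, but 28.0% of the 125 isoform 1 sites. AGO1, which carries microRNAs, was higher in isoform 7 with 35 against 22, a ratio of 2.47 (1.41 to 4.42). With 20 kb of flanks the AGO1 ratio was 1.46 (0.948 to 2.23). The scaffolds TNRC6A and TNRC6B had ratios of 1.12 (0.759 to 1.64) and 0.947 (0.677 to 1.32).

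Translation and stress granule loci were higher at 2 of 7 and lower at none. EIF4G1, the scaffold of translation initiation, held 77 isoform 7 and 68 isoform 1 sites, a ratio of 1.76 (1.25 to 2.47). EEF2, the elongation factor that moves the ribosome, held 44 and 37, a ratio of 1.85 (1.17 to 2.94), and 97.7% of its isoform 7 sites were shared. Over the list 86.9% of isoform 7 sites overlapped an isoform 1 site. G3BP1 and CAPRIN1, proteins of stress granules, had ratios of 0.601 (0.281 to 1.20) and 0.777 (0.455 to 1.29). With 20 kb of flanks G3BP1 had 34 against 100 sites, a ratio of 0.528 (0.347 to 0.786), and EEF1A1 20 against 53, a ratio of 0.586 (0.332 to 0.997). EIF4G2, EEF1A1 and ATXN2 also had intervals that included 1, and ATXN2 had only 3 sites, all in isoform 7.

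Giant E3 ubiquitin ligases, which tag proteins for degradation, were higher at 4 of 5 loci. HUWE1 held 200 isoform 7 and 195 isoform 1 sites, a ratio of 1.59 (1.30 to 1.95), and UBR4 152 and 155, a ratio of 1.52 (1.21 to 1.92). HERC1 and HERC2 had equal ratios of 2.59, from 25 against 15 and 50 against 30 sites. MYCBP2 held 41 and 53, a ratio of 1.20 (0.779 to 1.84). The summed ratio of the list was 1.62 (1.42 to 1.85) in the wild type. Between the I304N lists it was 0.822 (0.710 to 0.951), with 1 locus higher in isoform 7 and 3 lower.

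Cytoskeletal proteins and giant cadherins were higher at 5 of 9 loci and lower at 1. FLNA, a filamin that cross-links actin, held 122 isoform 7 and 97 isoform 1 sites, a ratio of 1.95 (1.48 to 2.58). CELSR2, a cadherin of planar cell polarity, held 90 isoform 7 and 55 isoform 1 sites, a ratio of 2.54 (1.80 to 3.62). The spectrins SPTAN1 and SPTBN1 and the dynein heavy chain DYNC1H1 were higher at 1.64, 1.42 and 1.28. AHNAK, a very large scaffold protein, was the exception, with 79 isoform 7 and 179 isoform 1 sites, a ratio of 0.685 (0.519 to 0.898). In AHNAK 79.7% of isoform 7 sites were shared, but 33.0% of isoform 1 sites. MACF1, FAT1 and DCHS1 had intervals that included 1.

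The long noncoding RNA list had a summed ratio of 2.69 (1.86 to 3.92), with its nuclear members higher in isoform 7. Without NEAT1 the summed ratio was 1.33 (0.853 to 2.06). NEAT1, the scaffold of paraspeckles, held 42 isoform 7 sites on chromosome 11 from 65190297 to 65212782 (plus strand) and no isoform 1 site. Set against a floor of 3 isoform 1 sites this is at least 21.7-fold higher. That figure takes the 42 sites as counted without error, and the exact interval of the ratio, which allows for it, began at 16.9. Among the other libraries I304N isoform 1 had 4 sites there and the rest had 0. Its neighbour MALAT1, which gathers at nuclear speckles, held 24 isoform 7 and 14 isoform 1 sites, a ratio of 2.66 (1.32 to 5.57), with 2 and 1 in the mutant lists and 0 in FXR1 and FXR2. In MALAT1 20.8% of the isoform 7 sites were shared. NORAD, a cytoplasmic noncoding RNA that binds Pumilio proteins, held 17 against 34, a ratio of 0.777 (0.407 to 1.43).

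Fixed loci of 15 kb or more were divided into the last 5 kb and the rest. Over these loci, 52 of 58, the last 5 kb held 17.5% (16.2 to 18.8) of isoform 7 sites and 19.3% (18.1 to 20.7) of isoform 1 sites, with overlapping intervals. The scaled ratio was 1.29 (1.15 to 1.44) in the last 5 kb and 1.46 (1.38 to 1.54) upstream of it. Among 43 loci with at least 10 sites in each list, the share in the last 5 kb was lower in isoform 7 at 26, higher at 16 and equal at 1. The equal locus was AHNAK, with 0 sites of every library in its last 5 kb. The ends used were those set from general knowledge, so the division depends on them. DICER1 had 9 isoform 7 and 49 isoform 1 sites in its last 5 kb, and CAPRIN1 had 9 and 31. These loci were chosen after their values were seen.

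**Figure D5:**
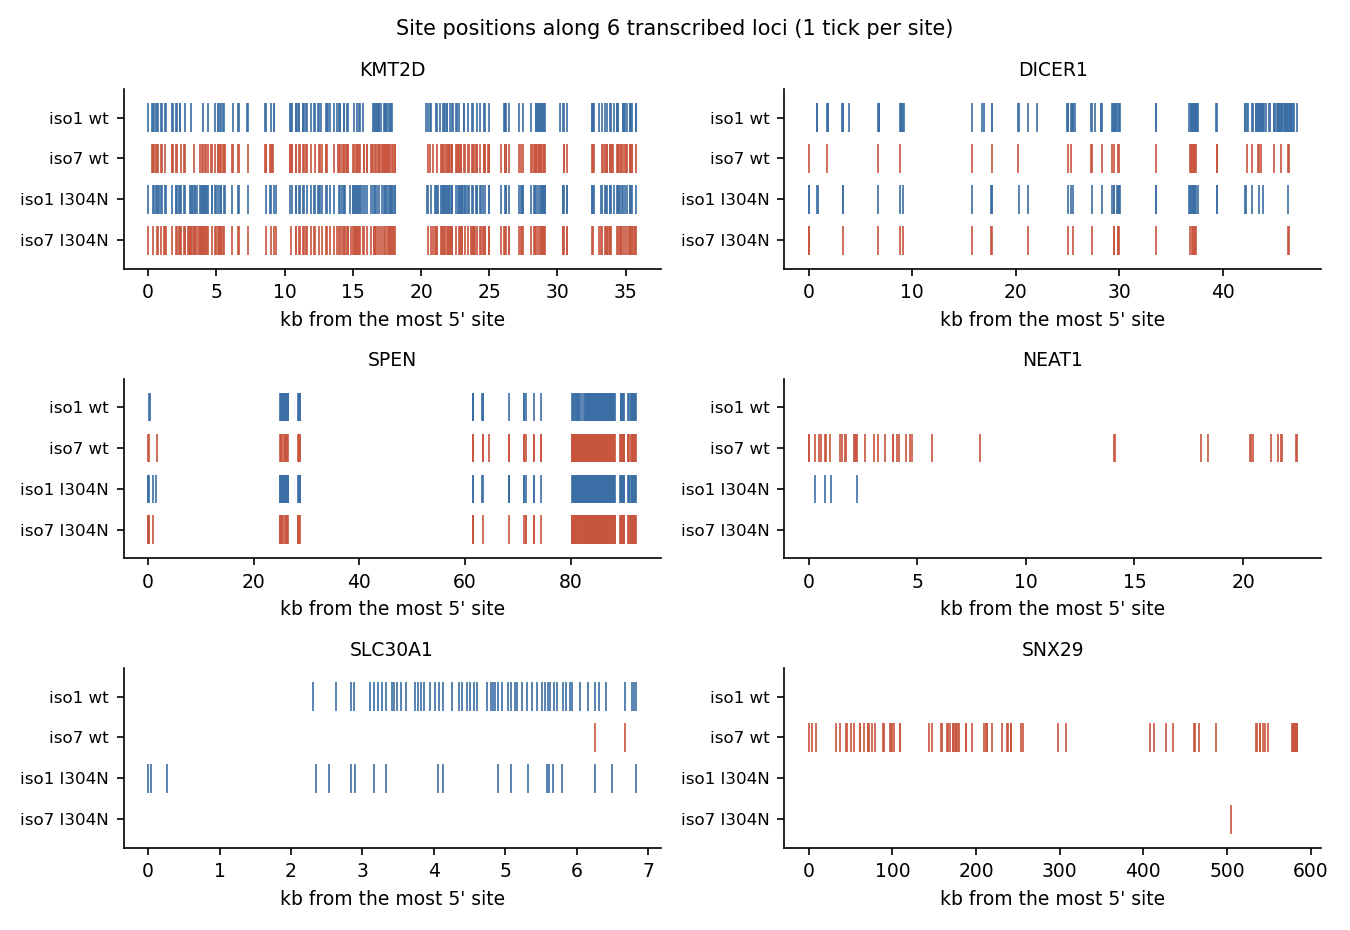
Positions of sites (1 tick per site) along 6 loci in the 4 FMR1 lists, with the x axis in kb from the most 5′ site of each locus, isoform 1 in blue and isoform 7 in red, wild type (wt) above I304N. KMT2D and SPEN are covered in all 4 lists, the right ends of DICER1 and SLC30A1 are dense in wild-type isoform 1, and NEAT1 and SNX29 are covered mainly or wholly in wild-type isoform 7.

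The windows at the extremes were named by a fixed rule, the 10 highest lower limits and the 10 lowest upper limits of the ratio, with ties kept. These windows were picked by the counts that gave their ratios, so the values describe the choice. Of the 14 windows at the high end, 12 had no wild-type isoform 1 site. In 10 of the 14, I304N isoform 1 had 10 sites or more, and in the other 4 it had none. Of those 4, 1 lay at NEAT1 and the others in SNX29. The share of all windows with such I304N isoform 1 numbers is not given, so these counts describe the chosen windows alone.

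SNX29, a sorting nexin gene on chromosome 16 from 12084172 to 12667672 (plus strand), had 90 isoform 7 sites and no isoform 1 site. Against the floor of 3 sites this is at least 46.6-fold higher, and the exact interval began at 37.1. I304N isoform 7 had 1 site there, and I304N isoform 1, FXR1 and FXR2 had 0. The 90 sites were spread over 583 kb, in 12 of 13 windows of 50 kb, with a median spacing of 2688 nt and a median width of 19 nt, and 18.9% carried the repeat flag. AMOT, the gene of angiomotin, a regulator of cell junctions, showed another arrangement on chromosome X from 112018262 to 112083931 (minus strand). It had 49 isoform 7 sites and 1 isoform 1 site, a ratio of 76.1 (13.0 to 3066), while I304N isoform 1 had 40 and I304N isoform 7 had 0. The median spacing of the 49 sites was 74.5 nt and none carried the repeat flag. Sites in AMOT were thus dense in isoform 7 for the wild type and in isoform 1 for I304N. INTS1, a subunit of the Integrator complex that processes nuclear RNA, had 19 isoform 7 sites and no isoform 1 site, at least 9.84-fold higher against the floor and with an exact lower limit of 7.25. The mutant lists had 55 and 35 sites in INTS1. ZMIZ1, a transcriptional coregulator, and LENG8 each had 13 against 0, at least 6.73-fold higher against the floor and with an exact lower limit of 4.73. I304N isoform 1 had 19 and 21 sites in them, respectively.

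At the low end, 10 windows had between 0 and 6 isoform 7 sites. FXR1 had at least 1 site in 8 of these 10, and in none of the 14 at the high end. The ends also differed in density, with 32 to 104 isoform 1 sites a window at the low end and 13 to 44 isoform 7 sites at the high end. The share of all windows with an FXR1 site is not given, so a link between FXR1 and either isoform was not tested. SLC30A1, a zinc exporter on chromosome 1 from 211745010 to 211749553 (minus strand), had 62 isoform 1 sites with a median spacing of 57.0 nt and 2 isoform 7 sites, a ratio of 0.0501 (0.00594 to 0.189). I304N isoform 1 had 21 sites in SLC30A1, I304N isoform 7 had 0, and FXR1 and FXR2 had 7 each. ZNF107, a zinc finger gene on chromosome 7 from 64166754 to 64170869 (plus strand), had 42 isoform 1 sites and no isoform 7 site. Against the floor of 3 sites this is at least 9.01-fold lower, and the exact interval of the ratio ended at 0.143. The mutant lists had 4 and 3 sites there, FXR1 had 12 and FXR2 had 25. ZADH2 held 2 isoform 7 and 51 isoform 1 sites, a ratio of 0.0609 (0.00718 to 0.232). SPRED1, an inhibitor of Ras signalling, held 2 against 34, a ratio of 0.0914 (0.0106 to 0.356).

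Loci that earlier results had shown to be dense in 1 list gave 2 higher and 4 lower. PIEZO1, a mechanically gated ion channel, held 23 isoform 7 and 7 isoform 1 sites, a ratio of 5.10 (2.12 to 14.1). RRP1, a ribosome biogenesis factor, had 5 against 0, with a lower limit of 1.42. LCOR, a ligand-dependent corepressor, held 13 against 88, a ratio of 0.229 (0.118 to 0.413), and 10.2% of its isoform 1 sites were shared against 76.9% of its isoform 7 sites. Dense sites went on beyond the limits set for LCOR: with 20 kb of flanks the numbers were 113 against 280, a ratio of 0.627 (0.499 to 0.782). ERC1, a scaffold of the presynaptic zone and of vesicle docking, held 38 against 127, a ratio of 0.465 (0.315 to 0.672). The opposite strand of the ERC1 locus held sites too, 15 in isoform 7 and 73 in isoform 1. CDK1, the mitotic kinase, held 5 against 23, a ratio of 0.338 (0.100 to 0.908). Without repeat sites the CDK1 ratio was 0.385 (0.113 to 1.06). Dense sites went on beyond the limits of CDK1 too: with 20 kb of flanks the numbers were 33 against 214, a ratio of 0.239 (0.161 to 0.347). SLC30A1 is given above.

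The densest windows differed between the lists except for KMT2D, which was among the 5 densest of both. In isoform 7 these 5 included windows of SPEN (138 against 95 sites, ratio 2.26, 1.72 to 2.96), FLNA (122 against 97) and SRRM2 (117 against 95). In isoform 1 they included positions 57800001 to 57850000 of chromosome 19 (plus strand), with 230 isoform 1 and 80 isoform 7 sites, a ratio of 0.540 (0.413 to 0.700).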

How the data were processed

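The deposited files list PAR-CLIP sites, 1 file for each of 6 libraries. The submitters' processing notes name Bowtie 0.12.7 and hg19. The sources used here do not give the site caller, thresholds or reads per site, so the read depth is unknown and each value counts sites. The deposited score is a flag, 1000 outside repeats and 0 in a repeat, per the file headers. Site numbers were scaled to 100000 a list. Overlaps, distances, windows and intervals were computed with Python 3.11.15, numpy 2.4.6, pandas 2.3.3 and scipy 1.17.1, and the scripts were tested on simulated data. Thinned values are exact expectations, without draws, for the random removal of isoform 1 sites.

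The members and gene lists were chosen with earlier results of these data known. Named genes were all members of the fixed lists, the windows at both ends of the ratio and the 5 densest windows of each list, with mitochondrial windows counted and not named. A few loci that this rule names are not reported here and enter no count of loci. No hg19 annotation was used: the limits of 66 loci on hg19 were set from general knowledge and no coordinate was converted. Against GENCODE release 29 on GRCh38, 66 had the same chromosome, 65 the same strand (CYFIP1 differed) and 57 a length within 10%. Exons, introns and UTRs were not assigned. Of the 66, 8 genes were named after their windows had been seen. Where a list had 0 sites, folds used a floor of 3 sites per list.

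Alternatives tried were other overlap rules, strand ignored, other isolation distances, window sizes, pseudocounts, filters and scaling, repeat or mitochondrial sites left out, and, chosen after seeing the data, sites of 18 to 24 nt only, loci with 20 kb of flanks and lists without each locus in turn.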

Additional observations from a re-analysis of the deposited data

Results flagged for a closer look

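At 5 loci of the fixed lists isoform 7 was above isoform 1 in the wild type and below it with I304N, each beyond its counting interval. The difference between the forms was not tested, since each has 1 library. MTOR had a scaled ratio of 2.19 in the wild type and 0.548 with I304N. For HERC1 these were 2.59 and 0.118, from 3 sites in I304N isoform 7 and 38 in I304N isoform 1. UBR4 had 1.52 and 0.617. The spectrins gave 1.64 and 0.389 for SPTAN1 and 1.42 and 0.552 for SPTBN1, and their wild-type intervals included 1 under median-of-ratios scaling. No locus of the fixed lists went from lower in the wild type to higher with I304N by this rule. Only 6 of the 58 were lower in the wild type, against 31 higher, so fewer could switch that way. No share of windows with either switch is given, and the lists were chosen with earlier results known.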

How the results depend on the processing

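Site numbers depend on depth and on the authors' caller, and both are unknown here. The share of isoform 7 sites on isoform 1 sites was 46.2% with an overlap of 50% of the shorter site, 29.4% with 50% of both, 48.0% without repeat sites and 31.6% with isoform 1 thinned. The reverse share was 27.8% and 18.9% under the overlap rules. Isolated isoform 7 sites made up 44.3% at 200 nt, 17.0% at 5000 nt and 27.9% without repeat sites. For isoform 1 these were 22.7% at 200 nt and 5.79% at 5000 nt, and 17.8% when thinned to the length of isoform 7. Windows higher and lower in isoform 7 numbered 746 and 925 with a pseudocount of 5, 374 and 736 with a mean of at least 10, and 8232 and 2284 without a filter. Higher windows were 48.8% of those past 2-fold at the settings of the report, 33.7% with a mean of at least 10 and 78.3% without a filter.

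With 50% of the shorter site, shared isoform 7 sites were met in 83.7% by I304N isoform 1, 3.25% by FXR1 and 21.4% by FXR2. Private isoform 7 sites were met in 48.6% by I304N isoform 1, 33.8% by I304N isoform 7, 0.597% by FXR1 and 3.41% by FXR2. Under that rule shared isoform 1 sites were met in 84.3% by I304N isoform 1, and private ones in 26.5% by I304N isoform 1, 14.7% by I304N isoform 7 and 12.5% by FXR2. Without repeat sites, private isoform 7 sites were met in 51.0% and 35.7% by the I304N lists and 4.48% by FXR2, and shared ones in 3.89% by FXR1. Private isoform 1 sites were then met in 28.4% by I304N isoform 1, and shared ones in 5.21% by FXR1.

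Among sites of 18 to 24 nt, shared isoform 7 sites were met in 80.8% and 58.8% by the I304N lists, 3.71% by FXR1 and 19.1% by FXR2. Private isoform 7 sites were met in 47.9% and 32.8% by the I304N lists and 3.73% by FXR2. Shared isoform 1 sites were met in 78.8% and 57.4% by the I304N lists, 2.13% by FXR1 and 15.0% by FXR2. Private isoform 1 sites were met in 24.7% and 13.3% by the I304N lists, 3.60% by FXR1 and 11.1% by FXR2. The order of private isoform 7 above private isoform 1 sites in the I304N lists, and below them in FXR1 and FXR2, held under each of these settings.

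At the 58 named loci with sites in both lists, median-of-ratios scaling, leaving out repeat sites and adding 20 kb of flanks reversed no ratio whose interval excluded 1. Of the ratios whose interval included 1, KMT2A, CHD8 and TNRC6A went to 0.954, 0.968 and 0.961 under median-of-ratios scaling, and ADNP and EEF1A1 to 0.976 and 0.586 with flanks. No paired analysis was possible because each form had 1 library.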

Other observations

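Of the 131 windows with at least 5 isoform 7 sites and no isoform 1 site, loci named above included, 16 were also empty in both I304N lists. In the opposite direction, 96 windows had at least 8 isoform 1 sites and no isoform 7 site, of which 6 had no site in either I304N list. The windows with a site in either wild-type list numbered 18406. The share of these that was empty in both I304N lists is not given, so these counts are a description. Between isoform 1 sites that carry the same number, 403 private isoform 7 sites lay in the gaps, 0.997% of private isoform 7 sites.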
